A study of Rattus norvegicus with 8 samples.

Results

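The cytosolic aminoacyl-tRNA synthetases and the enzymes that make asparagine, serine, proline, glutamine and related amino acids were examined in rat BRL-3A cells, a permanent line that originated in liver. The set held 37 genes, 20 synthetases and 17 enzymes of amino acid synthesis and folate one-carbon metabolism, matched by gene symbol. They were read by 51 of the 41012 non-control probes of the array, and 36 of the 37 genes were among the 10807 that counted as measured, of 16415 named on the array. The cells received siRNA directed at lnc19959.2, a long noncoding RNA (siRNA, 4 arrays), or a transfection labelled NC (4 arrays). All were lipofectamine transfections harvested at 48 h, and the labels do not say what NC stands for or whether the arrays came from separate cultures. lnc19959.2 itself was not analysed here. The series addressed triglyceride metabolism in rat liver, and the question here was how transcripts of amino acid supply and tRNA charging differed between siRNA and NC cells.

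Aminoacyl-tRNA synthetases attach each amino acid to its tRNA and so feed translation. Several of them sit in a large cytosolic assembly, the multisynthetase complex, held together by scaffold proteins. In mammalian cells, uncharged tRNA activates the kinase GCN2 (Eif2ak4), which phosphorylates the initiation factor eIF2 and favours translation of the transcription factor ATF4. ATF4 binds amino acid response elements at genes of amino acid synthesis, import and tRNA charging, among them the asparagine synthetase gene Asns. In liver tissue these enzymes also serve nitrogen disposal and methyl-group supply, with glutamine synthetase and the transsulfuration enzymes well known from hepatocytes.

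Each gene was read on its brightest probe, a 60-base oligonucleotide. The probes of 4 members that carried clear differences and of Asns, the classical target of the amino acid response, are shown because every value below is a signal at these letters. Positions come from the array design (rn4), and the sequence is that on the strand given. The Aars and Got1 probes cross an exon junction, since their span on the genome exceeds their length.
Aars, chr19:40973065-40973429, plus strand: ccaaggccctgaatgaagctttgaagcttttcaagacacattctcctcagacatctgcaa
Wars, chr6:133203751-133203810, minus strand: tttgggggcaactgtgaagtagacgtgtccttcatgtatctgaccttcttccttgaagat
Got1, chr1:247344588-247346796, plus strand: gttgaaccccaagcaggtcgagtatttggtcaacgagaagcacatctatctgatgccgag
Cth, chr2:256069319-256069378, minus strand: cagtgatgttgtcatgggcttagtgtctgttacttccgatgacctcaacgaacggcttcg
Asns, chr4:32759136-32759195, minus strand: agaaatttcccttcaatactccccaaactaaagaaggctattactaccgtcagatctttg

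The promoters were searched for a core of the amino acid response element, the letters TGATGNAA on both strands, from 250 bases before to 50 bases after the RefSeq transcript start (GRCr8). Of 32 members with a promoter in the table, 9 (28.1%) held at least 1 match, against 3.98% of all 33469 promoters in the table. The first share counts genes (Bcat1 and Glul had more than 1 promoter) and the second counts promoters, so the units differ. The matches lay in 7 of 17 synthetase genes (Aars, Cars, Iars, Mars, Nars, Tars and Yars) and in 2 of 15 amino acid synthesis genes (Got1 and Pycr1). Asns, the classical target of the amino acid response, held no match in this window, and neither did Mthfd2. The 250 bases upstream of the 4 matched members with the smallest adjusted p are shown, with the match in capitals. A match is a description of letters in this window and not a shown binding site.
Aars, chr19:55908232-55908481, plus strand: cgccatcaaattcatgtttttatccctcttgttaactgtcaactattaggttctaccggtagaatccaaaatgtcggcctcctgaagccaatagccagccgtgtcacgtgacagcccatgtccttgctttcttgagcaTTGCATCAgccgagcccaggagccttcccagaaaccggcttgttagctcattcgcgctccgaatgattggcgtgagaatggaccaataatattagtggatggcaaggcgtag
Got1, chr1:252329872-252330121, minus strand: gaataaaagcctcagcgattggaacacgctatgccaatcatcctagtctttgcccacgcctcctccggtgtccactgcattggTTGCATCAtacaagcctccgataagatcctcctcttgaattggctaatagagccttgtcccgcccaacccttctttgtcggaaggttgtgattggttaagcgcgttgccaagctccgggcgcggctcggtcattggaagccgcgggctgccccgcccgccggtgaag
Pycr1, chr10:106420813-106421062, minus strand: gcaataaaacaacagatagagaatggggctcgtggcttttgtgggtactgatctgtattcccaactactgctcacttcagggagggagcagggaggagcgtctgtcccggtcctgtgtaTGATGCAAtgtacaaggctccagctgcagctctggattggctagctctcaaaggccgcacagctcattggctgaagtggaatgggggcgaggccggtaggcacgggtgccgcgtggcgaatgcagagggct
Nars, chr18:60275783-60276032, minus strand: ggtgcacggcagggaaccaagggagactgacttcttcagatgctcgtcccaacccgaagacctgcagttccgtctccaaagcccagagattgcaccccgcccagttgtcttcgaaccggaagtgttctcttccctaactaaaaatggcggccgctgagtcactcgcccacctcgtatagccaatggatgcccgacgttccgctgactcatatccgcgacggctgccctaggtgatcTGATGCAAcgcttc

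The match began 112 bases before the start in Aars, 167 in Got1, 131 in Pycr1 and 14 in Nars, and Aars held a second match within its first transcribed bases. These 4 genes did not move together. Aars and Nars were lower in siRNA cells, while Got1 and Pycr1 were higher. The other matched members, Cars, Iars, Mars, Tars and Yars, had no called difference on their brightest probe, but this too moved with the scaling. Cars (adjusted p = 0.00555), Iars (0.00271), Mars (0.00584) and Yars (0.0188) were called lower with quantile normalization, and likewise with cyclic loess and with the 75th percentile over probes above background on all arrays. With spike-in scaling all of these and Tars were called higher, by 0.40 (Yars) to 0.53 (Tars), and Cars was called lower without siRNA replicate 3 (adjusted p = 0.0262).

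Signals below are log2 processed intensities minus the 75th percentile of the same array, called relative log2 signals, and differences are siRNA minus NC with their fitted standard error (SE) over 4 arrays per group. Levels of different probes are not compared. A gene was called when limma's adjusted p over all 24829 kept probes was under 0.05. The 75th percentile itself was an intensity of 289.2 to 322.7 on siRNA arrays and 246.1 to 261.2 on NC arrays, and 55.4% to 59.1% of spots were well above background on siRNA arrays, against 57.3% to 64.1% on NC arrays. Across probes, the correlation was 0.986 to 0.993 for arrays of one group and 0.946 to 0.962 for an siRNA array with an NC array. Each group had a slide and a scan of its own, so group cannot be told apart from slide or scan. Of 15 hepatocyte markers, 7 (among them Alb, Ttr, Tf, Tat, Serpina1 and Ass1) were above background on no array, while 8 of 10 fibroblast and stellate markers on the array were above background on every array of both groups. The summed signal of the hepatocyte list, in multiples of the array's 75th percentile, was 5.03 to 6.81 on siRNA arrays and 1.66 to 1.99 on NC arrays. Its members did not move one way: of 6 measured, 2 were called higher and 2 lower, with a median of -0.38. Cyp2e1, a cytochrome P450, was higher by 4.94 ± 0.30 on the log2 scale (adjusted p = 9.58e-06), while Apoa1, an apolipoprotein (-4.45 ± 0.20, adjusted p = 2.56e-06), and Krt18, a keratin (-3.19 ± 0.37, adjusted p = 0.00021), were lower, each above background on 1 of 4 siRNA arrays and on all 4 NC arrays. Cyp2e1 alone made up most of the summed hepatocyte signal on siRNA arrays (relative log2 signals of 2.14 to 2.65). On NC arrays it made up little of that sum (-3.33 to -2.01). The summed signal of the fibroblast list was 314.8 to 330.6 on siRNA arrays and 267.5 to 295.7 on NC arrays. That of 6 endothelial markers was 4.33 to 5.90 on siRNA arrays and 2.22 to 2.96 on NC arrays. For 5 cholangiocyte markers it was 4.27 to 4.87 on siRNA arrays and 2.13 to 2.41 on NC arrays. For 8 leukocyte markers it was 5.37 to 6.44 on siRNA arrays and 6.52 to 7.39 on NC arrays. Of 5 measured endothelial markers, 3 were called higher (among them Kdr, 1.65 ± 0.19) and 2 lower (Vwf and Tek, both above background on 0 of 4 siRNA arrays). Of 3 measured cholangiocyte markers, 1 was called higher (Krt7, 1.75 ± 0.11) and 2 lower (Sox9 and Spp1). Kdr and Krt7 likewise made up most of the summed signal of their lists on siRNA arrays (relative log2 signals of 1.55 to 2.05 and 1.78 to 2.07). Of 2 measured leukocyte markers, 0 were called higher and 1 lower. Pecam1, Epcam and Adgre1, 1 marker of each of these 3 lists in turn, were above background on no array. Of the endothelial markers, 3 were above background on every siRNA array and 4 on every NC array. For the cholangiocyte and the leukocyte list the count was 2 in both groups. The part of these marker shifts in the results was not tested, and fewer cells of a type cannot be told apart from less RNA per cell.

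Of the 36 measured members, 18 (50%) were called, 7 higher and 11 lower in siRNA cells. Over all 10807 measured genes 65.1% were called, 36.1% higher and 28.9% lower, so the share of called members lay below that of all genes. The same shares over all genes stand beside the counts of each subgroup of members below. The 2 groups did not overlap for 22 members (61.1%), against 62.5% of all genes. Only Glul, Got1 and Cth were called with a difference of at least 2-fold, 3 of 36 members (8.33%) against 13.0% of all genes. The median difference was -0.11 over the members and 0.04 over all measured genes. The remaining gene, Cbs, which makes cystathionine from homocysteine and serine, was above background on no array of either group and gave no value.

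**Figure D1:**
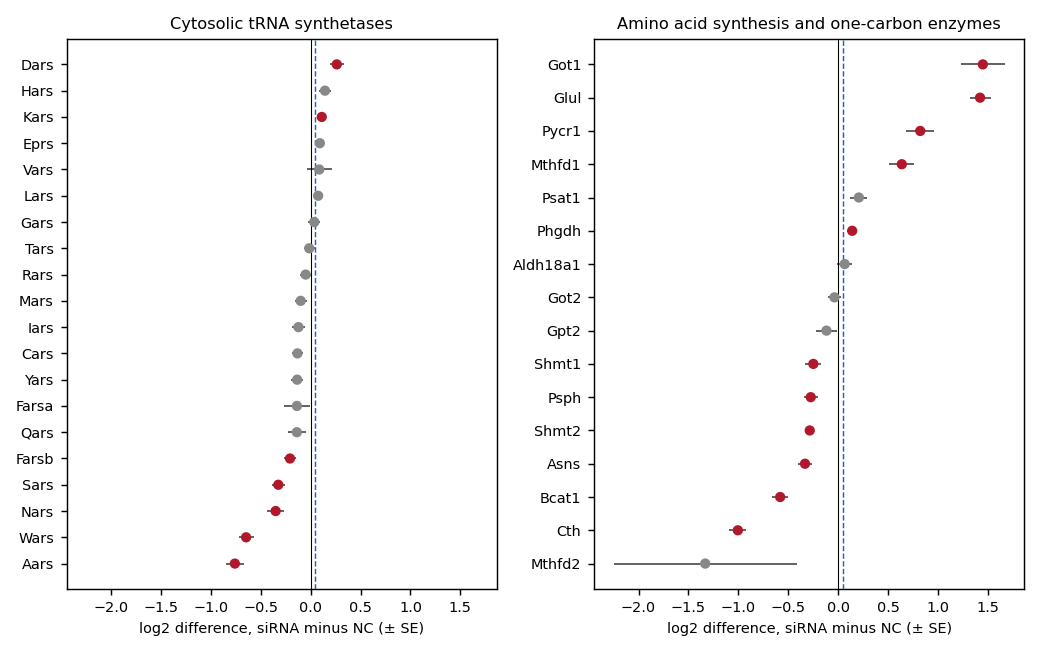
Log2 difference, siRNA minus NC, of the 36 measured members (horizontal axis, with SE bars, n = 4 arrays per group), red where called at an adjusted p under 0.05 and grey where not. The dashed line is the median of all measured genes (0.04). The synthetases run from -0.76 (Aars) to 0.26 (Dars), while the synthesis enzymes include Got1 and Glul near 1.4 and Cth at -1.01; Mthfd2 has a wide bar because 1 array stands apart.

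The cytosolic synthetases showed small differences, with 5 lower, 2 higher and 13 of 20 not called. Their median difference was -0.11, at percentile 37.2 of all genes. The alanyl, tryptophanyl, seryl and asparaginyl enzymes and the beta subunit of the phenylalanyl enzyme (Aars, Wars, Sars, Nars and Farsb) were lower, and the aspartyl and lysyl enzymes (Dars and Kars) were higher. These counts turned with the scaling of the arrays: median scaling gave 11 higher and 2 lower, spike-in scaling 17 higher and 0 lower (also 0 unadjusted), quantile normalization 1 higher and 10 lower, and cyclic loess 0 higher (1 at an unadjusted p under 0.05) and 10 lower. The median over all probes moved up by 0.31 with median scaling and by 0.54 with spike-in scaling, so each direction here is relative to the 75th percentile. The distance between the lowest and the highest synthetase, Aars and Dars, was 1.02 on the log2 scale and does not depend on any factor applied to a whole array.

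Aars, which charges tRNA with alanine, had relative log2 signals of 2.75, 2.74, 3.01 and 2.98 on siRNA arrays and 3.47, 3.58, 3.77 and 3.70 on NC arrays. All siRNA arrays lay below all NC arrays. The difference was -0.76 ± 0.09 (SE; adjusted p = 0.000276), or 1.69-fold lower. It kept its sign under all 19 alternative settings, at -0.22 with spike-in scaling (adjusted p = 0.0656) and -0.57 with normexp background correction (adjusted p = 0.143), the only settings in which it was not called.

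Wars, the tryptophanyl enzyme, had relative log2 signals of 0.77, 0.82, 0.97 and 0.78 on siRNA arrays and 1.35, 1.41, 1.58 and 1.58 on NC arrays. The groups were separated on every array. Its difference was -0.65 ± 0.08 (SE; adjusted p = 0.00021), and a second probe gave -0.63 ± 0.09 (adjusted p = 0.000457). Spike-in scaling (-0.11, adjusted p = 0.2) and normexp (-0.43, adjusted p = 0.132) ended the call without turning the sign. Tryptophanyl synthetase is also known as an interferon-induced gene in human cells.

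Sars, which charges tRNA with serine and whose product also supplies the selenocysteine tRNA, had relative log2 signals of 3.32, 3.16, 3.34 and 3.24 on siRNA arrays and 3.51, 3.53, 3.67 and 3.66 on NC arrays. The groups did not overlap, and the difference was -0.32 ± 0.06 (adjusted p = 0.00271). With spike-in scaling the sign turned, to 0.22 (adjusted p = 0.0205). Nars, the asparaginyl enzyme, differed by -0.35 ± 0.08 (adjusted p = 0.00754) and on its dimmer probe by -0.51 ± 0.08 (adjusted p = 0.000803). The 2 probes of Farsb, the beta subunit of the phenylalanyl enzyme, gave -0.21 ± 0.06 (adjusted p = 0.0149) and -0.57 ± 0.10 (adjusted p = 0.00123). Farsa, the alpha subunit, had a difference of -0.14 ± 0.13 that was not called (adjusted p = 0.389). With spike-in scaling Nars turned to 0.19 (adjusted p = 0.085) and Farsb to 0.33 (adjusted p = 0.00147).

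The 2 higher synthetases both belong to the multisynthetase complex. Dars, the aspartyl enzyme, had relative log2 signals of 1.87, 1.87, 1.67 and 1.72 on siRNA arrays and 1.63, 1.51, 1.51 and 1.43 on NC arrays. Its lowest siRNA array stood just above its highest NC array, and the difference was 0.26 ± 0.07 (adjusted p = 0.0115). Dars kept its sign under all 19 alternatives and lost its call with cyclic loess (0.17, adjusted p = 0.0555) and normexp (0.46, adjusted p = 0.068). Kars, the lysyl enzyme, had relative log2 signals of 3.41, 3.40, 3.43 and 3.40 on siRNA arrays and 3.28, 3.28, 3.31 and 3.34 on NC arrays. These groups were also separated, by a small step of 0.11 ± 0.04 (adjusted p = 0.0409). The Kars call was lost in 7 of the 8 fits that left out 1 array (each except that without NC replicate 4; adjusted p up to 0.104) and its sign turned with cyclic loess (-0.00052). Quantile normalization (0.0043, adjusted p = 0.937) and normexp (0.34, adjusted p = 0.253) ended the call as well. So did the 75th percentile over probes above background on all arrays (0.042, adjusted p = 0.411), no filter on dim probes and the replicate block.

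Of the 8 synthetases of the complex, 2 were higher, 0 lower and 6 not called, with a median difference of 0.01, and of the 12 outside it, 0 were higher, 5 lower and 7 not called, with a median of -0.14. At an unadjusted p under 0.05 the counts of 0 became 0 lower inside the complex and 1 higher outside it. Among the 9 class I enzymes 1 (Wars) was lower and none higher, and among the 10 class II enzymes 4 were lower and 2 higher (Eprs, which joins an enzyme of each class, was left out of both). The difference between these subgroups was not tested, and they too moved with the scaling. With quantile normalization 3 of the complex were lower (median -0.11), and with cyclic loess 3 (-0.099). The 75th percentile over probes above background on all arrays gave 3 lower too (-0.057). Outside the complex the medians with these settings were -0.23, -0.24 and -0.21. Spike-in scaling gave 8 higher inside it (0.55) and 9 higher outside it (0.40). With the mean of all kept probes, 1 of the complex was lower (median -0.07). The scaffold proteins of the complex were measured too: Aimp1 differed by 0.15 ± 0.05 (adjusted p = 0.0426) and Aimp2 by 0.15 ± 0.04 (adjusted p = 0.0199), both called higher, while Eef1e1 differed by -0.04 ± 0.06 (adjusted p = 0.619). Neither Aimp1 nor Aimp2 was called with quantile normalization, cyclic loess, normexp, the 75th percentile over probes above background on all arrays or no filter on dim probes. With the replicate block, and with the mean of all kept probes, 1 scaffold gene was called higher. Of the 8 fits that left out 1 array, those without NC replicate 2 and without siRNA replicate 3 ended both calls, that without siRNA replicate 4 called 2 scaffold genes higher, and each of the others called 1.

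The 13 synthetases without a call were Cars, Eprs, Gars, Hars, Iars, Lars, Mars, Qars, Rars, Tars, Vars, Yars and Farsa. Their differences lay between -0.14 (Qars, adjusted p = 0.223) and 0.14 (Hars, adjusted p = 0.0681). Hars, Eprs and Yars nevertheless had siRNA arrays wholly on one side of the NC arrays, higher for Hars and Eprs and lower for Yars. In 3 of the 13 a second, dimmer probe was called while the brightest was not: Lars at 0.23 ± 0.04 (adjusted p = 0.00299), Mars at -0.32 ± 0.08 (adjusted p = 0.00756) and Rars at -0.19 ± 0.05 (adjusted p = 0.0125). Of the 12 members with more than 1 kept probe, Gars and Eprs had probes whose differences had opposite signs, none of them called.

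**Figure D2:**
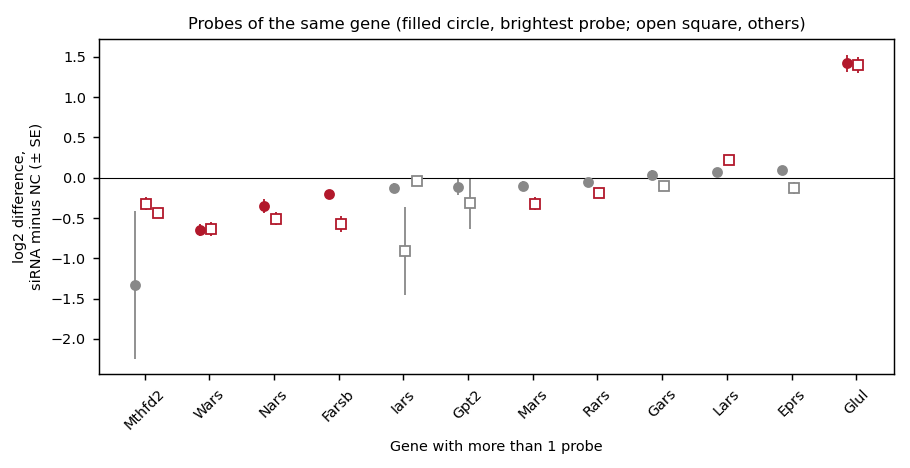
Log2 difference, siRNA minus NC (vertical axis, with SE bars, n = 4 arrays per group), of every kept probe of the 12 members with more than 1. Filled circles are the brightest probe, open squares the others, and red marks a call. The 2 Glul probes (1.42 and 1.40) and the 2 Wars probes (-0.65 and -0.63) nearly coincide, and the brightest Mthfd2 probe has the widest bar (SE 0.92).

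Among the 16 measured enzymes of amino acid synthesis, 5 were higher, 6 lower and 5 not called, with a median difference of -0.08. The members moved in both directions within the transaminase and amide branch and within the serine and folate branch. Median scaling gave a split of 8 higher and 2 lower, spike-in scaling 13 and 1, and normexp 3 and 1. Over all 10807 measured genes these settings in turn gave 6492 and 1654, 7863 and 1076, and 1205 and 763. Glul, Got1 and Mthfd1 (higher) and Cth (lower) kept sign and call under all 19 alternatives, which no other called member did.

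Glutamine and transaminase enzymes held the largest differences. Glul, glutamine synthetase, which joins ammonia to glutamate, had relative log2 signals of 1.93, 1.84, 1.90 and 1.80 on siRNA arrays and 0.62, 0.36, 0.17 and 0.62 on NC arrays. Every siRNA array exceeded every NC array by more than 1 log2 unit. The difference was 1.42 ± 0.11 (adjusted p = 2.54e-05), or 2.68-fold, and a second probe gave 1.40 ± 0.10 (adjusted p = 1.71e-05). It lay at percentile 98.3 of all measured genes. Neither Glul probe has a genome position in the array design.

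Got1, the cytosolic aspartate aminotransferase, had relative log2 signals of 3.98, 4.11, 4.20 and 3.95 on siRNA arrays and 3.03, 3.02, 2.17 and 2.22 on NC arrays. The NC arrays fell into a higher and a lower pair, both below all siRNA arrays. The difference was 1.45 ± 0.22 (adjusted p = 0.000791), or 2.73-fold, on the probe printed above. Got2, its mitochondrial counterpart, had a difference of -0.04 ± 0.07 (adjusted p = 0.649), with overlapping groups.

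Asns, which makes asparagine from aspartate and glutamine, had relative log2 signals of 3.93, 3.91, 4.08 and 3.81 on siRNA arrays and 4.23, 4.31, 4.31 and 4.22 on NC arrays. The highest siRNA array was below the lowest NC array. Its difference was -0.33 ± 0.07 (adjusted p = 0.00293). The call rested on the scaling: Asns was at -0.03 with median scaling (adjusted p = 0.736) and at 0.21 with spike-in scaling (adjusted p = 0.0337), called in the opposite direction.

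Bcat1, the cytosolic branched-chain aminotransferase, had relative log2 signals of 0.63, 0.44, 0.62 and 0.53 on siRNA arrays and 0.98, 1.09, 1.30 and 1.16 on NC arrays. These did not overlap, and the difference was -0.58 ± 0.08 (adjusted p = 0.000452). It was not called with spike-in scaling (-0.041, adjusted p = 0.642) or normexp (-0.35, adjusted p = 0.198). Gpt2, the mitochondrial alanine aminotransferase, had a difference of -0.12 ± 0.10 (adjusted p = 0.352).

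In the serine and folate branch, 2 of 7 enzymes were higher, 3 lower and 2 not called, with a median of -0.25. Phgdh, Psat1 and Psph catalyse the 3 steps from 3-phosphoglycerate to serine, and they did not move as one. Phgdh had a difference of 0.14 ± 0.05 (adjusted p = 0.0421), Psat1 of 0.21 ± 0.08 (adjusted p = 0.0631, not called) and Psph of -0.27 ± 0.07 (adjusted p = 0.0113). The direction of Psph turned with the scaling, to 0.032 with median scaling (adjusted p = 0.729) and to 0.27 with spike-in scaling (adjusted p = 0.0191), called in the opposite direction. The Phgdh call was lost in 6 of the 8 fits that left out 1 array (each except those without NC replicate 4 and without siRNA replicate 4; adjusted p up to 0.112), and Psat1 was called without NC replicate 4 (0.26, adjusted p = 0.0277).

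Shmt2, the mitochondrial serine hydroxymethyltransferase that passes the serine carbon to folate, had relative log2 signals of 4.10, 4.10, 4.10 and 4.03 on siRNA arrays and 4.36, 4.36, 4.33 and 4.42 on NC arrays. Both groups were tight and apart, by -0.28 ± 0.04 (adjusted p = 0.000889), although median scaling brought the difference to 0.022 (adjusted p = 0.751) and spike-in scaling to 0.26 (adjusted p = 0.00557, called higher). The cytosolic form, Shmt1, differed by -0.25 ± 0.08 (adjusted p = 0.0261), a call lost in 4 of the 8 fits that left out 1 array (without NC replicates 1, 2 and 4 and siRNA replicate 2; adjusted p up to 0.0656). The sign of Shmt1 turned too, to 0.058 with median scaling (adjusted p = 0.601) and to 0.29 with spike-in scaling (adjusted p = 0.0243, called higher).

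Mthfd1, the trifunctional cytosolic folate enzyme, went the other way. It had relative log2 signals of 2.34, 2.47, 2.42 and 2.56 on siRNA arrays and 1.91, 1.73, 1.49 and 2.09 on NC arrays. The groups were apart, and the difference was 0.64 ± 0.13 (adjusted p = 0.00285), at 0.53 to 1.18 over the 19 alternatives.

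Mthfd2, the mitochondrial partner of Mthfd1 and a gene known to respond to ATF4, depended on 1 array. Its brightest probe had relative log2 signals of -1.93, 2.32, 2.41 and 1.97 on siRNA arrays and 2.54, 2.50, 2.62 and 2.43 on NC arrays, so siRNA replicate 1 lay far below the rest. The difference was -1.33 ± 0.92 (adjusted p = 0.238), and -0.29 without siRNA replicate 1 (adjusted p = 0.0608). The other 2 Mthfd2 probes showed no such array and were called lower, at -0.43 ± 0.06 (adjusted p = 0.000707) and -0.32 ± 0.08 (adjusted p = 0.00801). They had the same sign as the brightest probe.

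**Figure D3:**
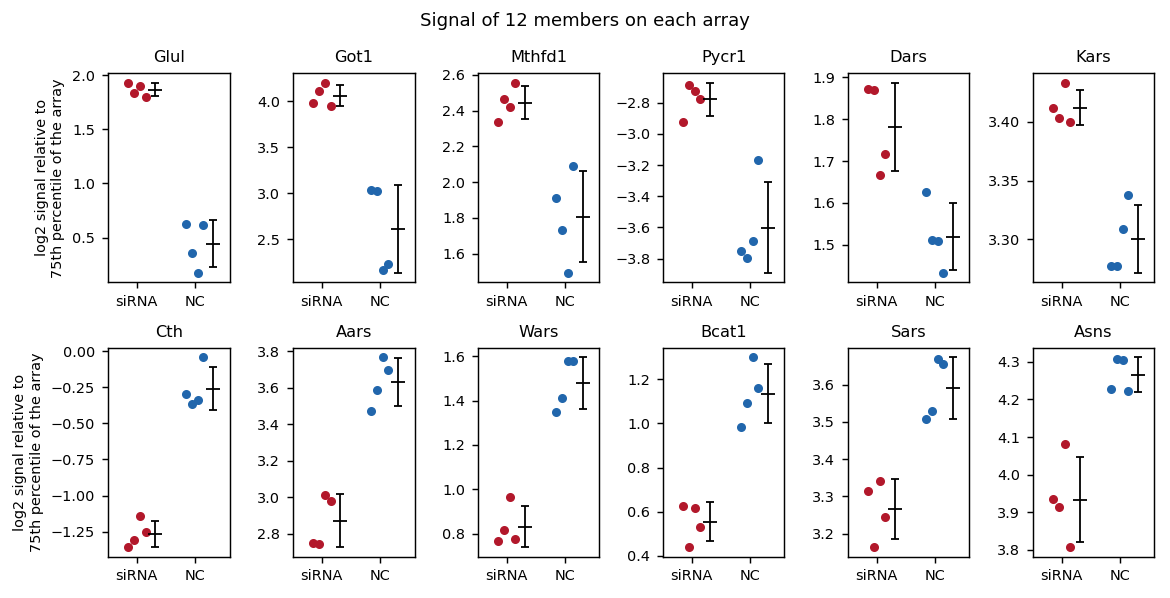
Relative log2 signal (vertical axis, own scale for each gene) of 12 members on each siRNA array (red, left) and NC array (blue, right), with the mean and SD of 4 arrays as a black bar. The 12 were chosen from the called members, and in all 12 the groups are separated. Over all measured genes, 62.5% had no overlap between the groups. Glul spans 1.80 to 1.93 on siRNA arrays and 0.17 to 0.62 on NC arrays, while Kars spans 3.40 to 3.43 and 3.28 to 3.34.

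Of the 2 proline enzymes, Pycr1, the reductase that completes proline, was higher. Its relative log2 signals were -2.93, -2.68, -2.73 and -2.77 on siRNA arrays and -3.75, -3.79, -3.69 and -3.17 on NC arrays. The probe was dim, above background on 4 siRNA arrays and on 3 of 4 NC arrays, and NC replicate 4 lay nearest to the siRNA arrays. The difference was 0.82 ± 0.14 (adjusted p = 0.00144), with the sign turned by normexp background correction (-0.34, adjusted p = 0.455). Aldh18a1, which catalyses the first steps of proline synthesis, had a difference of 0.07 ± 0.07 (adjusted p = 0.463).

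Cth, cystathionine gamma-lyase, which releases cysteine from cystathionine, was the lowest of the called members. Its relative log2 signals were -1.36, -1.31, -1.14 and -1.25 on siRNA arrays and -0.30, -0.37, -0.34 and -0.04 on NC arrays. The gap between the groups was wider than the spread within either. The difference was -1.01 ± 0.09 (adjusted p = 4.79e-05), or 2.01-fold lower, and ranged from -1.07 to -0.47 over the 19 alternatives.

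**Figure D4:**
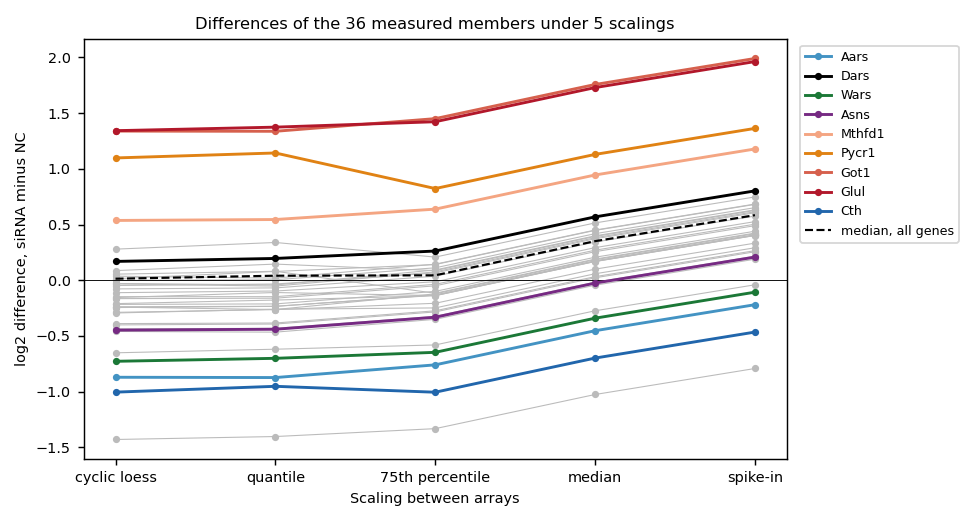
Log2 difference, siRNA minus NC (vertical axis), of the 36 measured members under 5 ways of bringing the arrays to 1 scale (horizontal axis, 1 line per gene, 9 coloured and the others grey), with the median of all measured genes as a dashed line. All lines rise together from the 75th percentile to median and spike-in scaling, as the dashed line does (0.04, 0.35 and 0.58); Asns crosses 0, while Glul and Got1 stay above 1.3 and Cth, Aars and Wars stay below 0.

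Genes around the members were counted in lists of related function. The counts of this and the following lists stand beside 36.1% of all measured genes called higher and 28.9% called lower. No list was tested against these shares. Of 17 measured mitochondrial synthetases and amidotransferase subunits, which charge tRNA inside the organelle, 6 were higher and 4 lower (median 0.09). The higher ones included Sars2 (0.48 ± 0.06, adjusted p = 0.000383), Pars2 (0.36 ± 0.07, adjusted p = 0.00329) and Qrsl1 (0.26 ± 0.05, adjusted p = 0.00342). The lower ones were Ears2 (-0.56 ± 0.06, adjusted p = 0.000197), Vars2 (-0.29 ± 0.06, adjusted p = 0.00286), Gatb (-0.18 ± 0.06, adjusted p = 0.0257) and Fars2 (-0.19 ± 0.07, adjusted p = 0.0443). For serine, the mitochondrial enzyme (Sars2) was higher and the cytosolic one (Sars) lower. Median scaling split the list into 12 higher and 1 lower, spike-in scaling into 15 and 0, and quantile normalization into 8 and 3.

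Of 28 other measured enzymes of amino acid and one-carbon metabolism, 9 were higher and 12 lower (median -0.12). The higher genes included Ahcy, which clears S-adenosylhomocysteine (0.64 ± 0.07, adjusted p = 0.000112), Glud1, glutamate dehydrogenase (0.45 ± 0.07, adjusted p = 0.000611), and Gls2, a glutaminase (0.29 ± 0.05, adjusted p = 0.00205). The lower ones with the smallest adjusted p were Gnmt, the glycine methyltransferase, Mat2b, a subunit of methionine adenosyltransferase (-0.52 ± 0.06, adjusted p = 0.00022), Sds, serine dehydratase (-0.70 ± 0.09, adjusted p = 0.00031), and Mthfd2l, a relative of Mthfd2 (-1.52 ± 0.19, adjusted p = 0.000311). Gnmt was above background on 0 of 4 siRNA arrays and on all 4 NC arrays and was at least 2.09-fold lower (adjusted p = 3e-06). Median scaling gave 13 higher and 6 lower, and spike-in scaling 18 and 3. Where a gene is called at least so many fold lower, the NC mean was set against a floor on each siRNA array, the probe's own signal or, if higher, the dimmest signal well above background. Set at these bounds, such genes stay on the same side of their list's median.

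Of 14 measured amino acid transporters, 2 were higher and 8 lower, with a median of -0.37 against 0.04 over all genes. Slc6a6, the taurine transporter, was higher by 1.32 ± 0.08 (adjusted p = 7.65e-06) and Slc43a2, a transporter of large neutral amino acids, by 0.65 ± 0.24 (adjusted p = 0.0481). Lower were Slc38a2, a sodium-coupled neutral amino acid carrier (-0.42 ± 0.05, adjusted p = 0.000248), Slc7a1, a carrier of cationic amino acids (-0.33 ± 0.06, adjusted p = 0.00138), and Slc3a2, the heavy chain shared by several exchangers (-0.58 ± 0.10, adjusted p = 0.00144). Slc36a1, a proton-coupled carrier, was above background on 0 of 4 siRNA arrays and 4 NC arrays and was at least 1.77-fold lower (adjusted p = 6.57e-05). Slc7a11, the cystine-glutamate exchanger, which imports cystine, the oxidised form of the cysteine that Cth releases, was named after its value was seen and differed by -1.33 ± 0.24 (adjusted p = 0.00212). Median scaling gave 4 higher and 4 lower, and spike-in scaling 6 and 2.

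Of 23 measured regulators and targets of the ATF4 axis outside the set, 3 were higher and 14 lower, with a median difference of -0.55. Sesn2, an inhibitor of mTORC1 signalling (-1.11 ± 0.06, adjusted p = 4.01e-06), Chac1, a glutathione-degrading enzyme (-1.20 ± 0.07, adjusted p = 9.85e-06), Impact, a GCN2 inhibitor (-1.08 ± 0.08, adjusted p = 3.05e-05), and Ppp1r15b, an eIF2 phosphatase subunit (-0.84 ± 0.07, adjusted p = 4.67e-05), had the smallest adjusted p among the lower ones. The higher ones were Ddit4, another mTORC1 inhibitor (0.49 ± 0.06, adjusted p = 0.000244), and the eIF2 kinases Eif2ak1 (0.39 ± 0.06, adjusted p = 0.000568) and Eif2ak4 (0.29 ± 0.07, adjusted p = 0.00592). Atf4 itself, named after its value was seen, had relative log2 signals of 6.96, 6.78, 6.80 and 6.56 on siRNA arrays and 7.34, 7.39, 7.41 and 7.19 on NC arrays, a difference of -0.56 ± 0.09 (adjusted p = 0.00116). The groups did not overlap for Atf4. Median scaling split the list into 7 higher and 11 lower, spike-in scaling into 11 and 7, and normexp into 0 (2 at an unadjusted p under 0.05) and 6. Set beside the transporters and the ATF4 axis list, the synthetases had a median of -0.11 and the amino acid synthesis enzymes of -0.08, both nearer to the median of all genes; the differences between the lists were not tested.

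**Figure D5:**
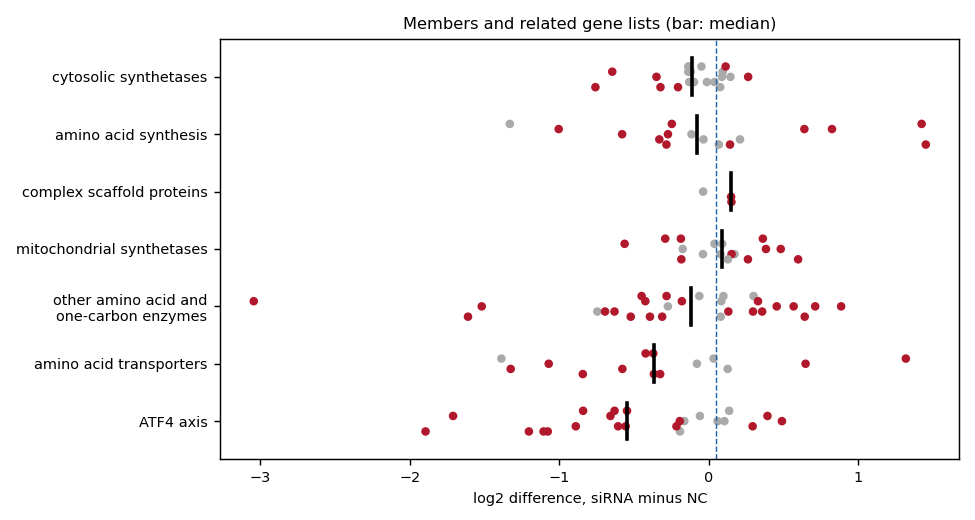
Log2 difference, siRNA minus NC (horizontal axis), of every measured gene of the 2 member groups and 5 related lists (1 point per gene, red where called, grey where not), with each list's median as a black bar and the median of all measured genes as a dashed line (0.04). The bars lie at -0.11 and -0.08 for the member groups, at -0.37 for the transporters and at -0.55 for the ATF4 axis; genes that a whole group held below background are plotted at fitted values, not bounds.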

How the data were processed

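Cy3-labelled RNA of 8 BRL-3A samples was run on Agilent 1-colour rat genome arrays, per the labels. The deposited scanner files hold each spot's processed intensity, background-subtracted within each array with no scaling between arrays, and mean and background intensity, from Agilent Feature Extraction 12.0.3.1 per the file headers (12.0 per the submitters' processing notes, which also name limma with no role given). A second deposited table gives log2 values for 86 probes by a normalization not given in the sources here; 0 of them read a member, and it was not used.

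Of 45018 spots per array, control spots and 129 to 174 spots per array marked as outliers were left out, and 0 spots were saturated. The log2 intensity of each spot was set relative to the 75th percentile of its array, and replicate spots were averaged. Probes well above background on at least 3 of 4 arrays of 1 group were kept (24829), without 24 others that lacked an unmarked spot on some array. A gene was read on its brightest kept probe. The test was limma's (version 3.58.1, R 4.3.3; lmFit and eBayes, two-sided, Benjamini-Hochberg over the kept probes, adjusted p under 0.05). The fit was tested on simulated data. The number of arrays limits the precision, and since nothing says that arrays are separate cultures, p-values measure only the spread between them, which may be technical.

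Members were matched by the files' gene symbols, other genes by accession through the RefSeq gene table (GRCr8) or by symbol. The members and lists were chosen with earlier results of these data known. Every member is accounted for; values on every array are given for the 6 higher and 6 lower called members with the smallest adjusted p, for Asns and for Mthfd2, which was added after its values were seen; of each related list up to 4 called genes per direction are named, smallest adjusted p first, except 2 that are not reported here, with Slc7a11 and Atf4 added after their values were seen. Promoter sequences are RefSeq's (GRCr8, 32 of 37 members matched). Replicate numbers did not pair the arrays: correlations of same-numbered deviations were 0.01, 0.03, -0.03 and 0.21. The 19 alternatives changed background correction, scaling, filters, marked spots, gene summary, replicate block and 1 array left out at a time.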

Additional observations from a re-analysis of the deposited data

Results flagged for a closer look

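In 6 of the 100 sets of 4 arrays tested (each of the 50 kept probes in each group), 1 array lay so far from the other 3 that the gap exceeded Dixon's critical share of the range, which chance alone passes in about 1 in 20 such sets. Only the Mthfd2 case was large. The brightest Mthfd2 probe had a relative log2 signal of -1.93 on siRNA replicate 1 and 1.97 to 2.41 on the other siRNA arrays. The other 2 Mthfd2 probes of that array were not set apart. On siRNA replicate 4, the brightest Iars probe was at 4.63 against 4.70 on the other siRNA arrays, Shmt2 was at 4.03 against 4.10, and Vars was at -0.53 against -0.78 to -0.74. The dimmer Lars probe was at 2.53 on siRNA replicate 1 and 2.64 to 2.65 on the others. The dimmer Wars probe was at 0.38 on NC replicate 4 and 0.54 to 0.55 on the other NC arrays.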

How the results depend on the processing

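Of the 18 called members, Glul, Got1, Mthfd1 and Cth kept direction and call under all 19 alternatives, and Aars, Wars, Bcat1 and Dars kept the direction under all and the call under 17. Keeping marked spots changed no member's call, and keeping only probes above background on all 8 arrays changed none but left out Pycr1, whose probe was not above background on 1 NC array. Changes of sign came mainly with the scaling, which moves all genes (0.31 for median and 0.54 for spike-in scaling over all probes), and with normexp; the cause was not tested.

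With median scaling, the differences of the members that changed sign were 0.17 for Cars, 0.18 for Iars, 0.21 for Mars, 0.17 for Qars, 0.26 for Rars, 0.29 for Tars, 0.17 for Yars, 0.17 for Farsa, 0.10 for Farsb, 0.032 for Psph, 0.058 for Shmt1, 0.022 for Shmt2, 0.27 for Got2 and 0.19 for Gpt2. With spike-in scaling they were 0.41 for Cars, 0.42 for Iars, 0.44 for Mars, 0.19 for Nars, 0.40 for Qars, 0.49 for Rars, 0.22 for Sars, 0.53 for Tars, 0.40 for Yars, 0.40 for Farsa, 0.33 for Farsb, 0.21 for Asns, 0.27 for Psph, 0.29 for Shmt1, 0.26 for Shmt2, 0.50 for Got2 and 0.42 for Gpt2; Sars, Farsb, Asns, Psph, Shmt1 and Shmt2, called lower at the 75th percentile, were called higher there. With normexp background correction they were 0.17 for Cars, 0.17 for Iars, 0.22 for Mars, 0.015 for Qars, 0.28 for Rars, 0.20 for Tars, -0.22 for Vars, 0.10 for Yars, -0.20 for Psat1, 0.038 for Psph, 0.061 for Shmt2, -0.34 for Pycr1 and 0.25 for Got2. With cyclic loess they were -0.029 for Eprs, -0.078 for Gars, -0.00052 for Kars, -0.033 for Lars, -0.047 for Aldh18a1 and 0.055 for Gpt2, and with quantile normalization -0.042 for Eprs, -0.069 for Gars, -0.053 for Lars, -0.034 for Aldh18a1 and 0.080 for Gpt2. With the 75th percentile over probes above background on all arrays, Gars was at -0.034 and Aldh18a1 at -0.0038, and with the mean of all kept probes of a gene Eprs was at -0.017 and Gars at -0.031.

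Over all 10807 measured genes, median scaling gave 6492 higher and 1654 lower, spike-in scaling 7863 and 1076, and normexp 1205 and 763. Counts (higher and lower) and medians of the lists moved as follows. For the cytosolic tRNA synthetases, median scaling gave 11 and 2 (median 0.20), spike-in scaling 17 and 0 (0.43), normexp 0 and 0 (0.17), quantile normalization 1 and 10 (-0.17), cyclic loess 0 and 10 (-0.19), and the 75th percentile over probes above background on all arrays 1 and 10 (-0.18); without a filter on dim probes 1 was higher. For the amino acid synthesis members, median scaling gave 8 and 2 (0.23), spike-in scaling 13 and 1 (0.46) and normexp 3 and 1. For the mitochondrial tRNA synthetases, median scaling gave 12 and 1 (0.39), spike-in scaling 15 and 0 (0.63), normexp 0 and 0, quantile normalization a median of 0.21, and no filter on dim probes 2 lower. For the other amino acid and one-carbon enzymes, median scaling gave 6 lower (0.18), spike-in scaling 18 and 3 (0.42), normexp 3 and 2 (-0.23), and only probes above background on all 8 arrays a median of 0.0073. For the amino acid transporters, median scaling gave 4 and 4 (-0.064), spike-in scaling 6 and 2 (0.17) and normexp 0 (2 unadjusted) and 1 (-0.21); 1 was higher by quantile normalization, by cyclic loess, by the percentile over probes above background on all arrays and by the mean of all kept probes. For the ATF4 axis regulators and targets outside the members, median scaling gave 7 higher (-0.24), spike-in scaling 11 and 7 (-0.0084) and normexp 0 and 6 (-0.34). With normexp, at an unadjusted p under 0.05, 1 cytosolic synthetase was higher and 2 lower, and 2 mitochondrial ones were higher and 1 lower.

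Leaving out 1 array at a time, 1 to 2 cytosolic tRNA synthetases were higher, 2 to 4 mitochondrial tRNA synthetases were lower and 1 to 3 amino acid transporters were higher; Tars ranged from -0.043 to 0.023 and Got2 from -0.065 to 0.023. The replicate block left 1 cytosolic synthetase higher and 5 lower, and it ended the calls of Kars, Phgdh and Shmt1; the arrays share only a number. The member probes are not in the authors' deposited table, so the alternative on its values was not run, and matching members by accession added no probe.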
